A study of Mus musculus with 9 samples.

Results

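A set of 35 genes for the actin cytoskeleton, focal adhesions and targets of the transcription factor SRF was followed across 3 matrices in 3D culture of D2.OR, a mouse cell line derived from a mammary tumor. The genes were listed by function, with earlier results of these data known. Of the 35, 32 had a probe set of their own among the 19938 genes tested. Rock2 and Ptk2 had no probe set among those assigned to genes here, and Actg1 appeared only on probe sets shared with Actb. Where a gene had several probe sets, the brightest on average was taken.

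The 9 arrays formed 3 groups of 3 by their titles. The first was D2.OR cells in fibrillar collagen I, the second the same cells in non-fibrillar collagen I, and the third the same cells in Matrigel, a basement membrane extract; the cells carried no labelled genetic change or drug in any group. Only titles define the Matrigel group, because its growth label repeats the non-fibrillar wording, and its accessions are later than the others, so any batch that goes with them cannot be told apart from Matrigel. The line is 1 cell line, no label says that replicates were separate cultures, and p-values therefore measure only the spread between these arrays, which may be technical. The values are log2 RMA expression, whose array medians lay between 5.98 and 6.05. Values repeat exactly in at least 3 of the 9 arrays for 7 of the 32 genes (21.9%; 37.8% of all genes), and an SD within a group can then be 0; none of the 10 genes called is among them.

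Actin filaments are built from actin monomers, crosslinked by alpha-actinins and filamin, decorated by tropomyosins, calponins and transgelins, and pulled by myosin II under the control of the GTPase RhoA and its kinases. At focal adhesions talin, vinculin, zyxin and paxillin tie these filaments to integrins bound to the matrix. When monomeric actin is used up, MRTF coactivators enter the nucleus and act with SRF, which binds a DNA element called the CArG box in many of these same genes. Smooth muscle and myoepithelial cells are known for high levels of the contractile forms.

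The CArG box is CC, 6 bases that are each A or T, and GG, and this pattern reads the same on both strands. It was searched in the 250 bases before each gene start in the RefSeq promoter table (GRCm38.p6), where 29 of the 35 genes had an entry, in 34 windows. Actg2, Actb, Tagln, Rock1, Pxn and Ptk2 had none. A box was found for 7 of the 29 genes (24.1%), against 439 of 27025 genes (1.62%) over the whole table. The set was assembled partly as SRF targets, so this share describes the list. The boxes, in capitals, are shown because 2 of the genes that carry them, Cnn2 and Fhl2, changed between matrices while Srf and Vcl did not pass in any comparison. For Cnn2 the whole window, at chr10:79988350-79988599 on the plus strand, is given, with its box 56 to 47 bases before the start.

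Cnn2: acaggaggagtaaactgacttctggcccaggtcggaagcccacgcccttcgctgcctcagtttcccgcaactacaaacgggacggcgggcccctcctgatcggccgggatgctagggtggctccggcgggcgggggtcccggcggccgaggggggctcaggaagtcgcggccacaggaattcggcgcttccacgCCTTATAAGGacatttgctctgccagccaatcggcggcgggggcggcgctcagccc

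The other genes are shown by 30 bases around the box. Fhl2 has 2 windows with 1 box each, at chr1:43196838-43196867 and chr1:43163973-43164002 on the minus strand, both inside the gene's span at alternative starts. Srf has 2 boxes in 1 window, at chr17:46556215-46556244 on the minus strand, also inside its gene's span. Vcl lies at chr14:20929161-20929190 on the plus strand, Myl9 at chr2:156775293-156775322 on the plus strand and Actg1 at chr11:120348566-120348595 on the minus strand. Fhl1 lies at chrX:56779571-56779600 on the plus strand, inside its gene's span.
Fhl2, first start: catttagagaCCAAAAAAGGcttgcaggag
Fhl2, second start: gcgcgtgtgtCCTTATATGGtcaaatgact
Srf: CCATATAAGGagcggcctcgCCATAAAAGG
Vcl: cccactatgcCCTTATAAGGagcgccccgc
Myl9: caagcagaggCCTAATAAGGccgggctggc
Actg1: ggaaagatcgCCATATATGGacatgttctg
Fhl1: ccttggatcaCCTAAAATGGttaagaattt

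A match is a description of these letters and not a site of binding. The boxes of Cnn2 and Vcl are spelled alike, and of these only Cnn2 passed a comparison, in non-fibrillar collagen against Matrigel. Myl9 and Fhl1, which also carry a box, passed none, and Actg1 had no value of its own.

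Of the 32 measured genes, 10 passed limma's test (Benjamini-Hochberg adjusted over all genes, threshold 0.05) in at least 1 of the 3 comparisons, and 22 passed in none. How many of all genes passed in at least 1 comparison was not counted, so whether 10 is many cannot be read from it. Shares over all genes are given below for each comparison. The calls were Actn1, Tagln2, Cnn2, Tpm4, Myh9, Myh10, Vasp, Enah, Fhl2 and Pdlim7. In 6 of the 10 (Tagln2, Cnn2, Tpm4, Vasp, Fhl2 and Pdlim7) the mean was highest in non-fibrillar collagen and lowest in Matrigel. In Actn1 and Myh10 it was highest in fibrillar collagen and lowest in Matrigel, in Myh9 highest in fibrillar and lowest in non-fibrillar collagen, and in Enah highest in Matrigel. Differences were small, and the largest was the 1.49-fold one of Enah. The 3 comparisons share arrays, so their calls are not independent of each other. The collagens were compared in a fit of 6 arrays and each collagen with Matrigel in a fit of all 9, so counts below are not like for like. With all 9 arrays 6 of the 32 genes passed between the collagens, where 1765 of 19938 genes did.

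**Figure D1:**
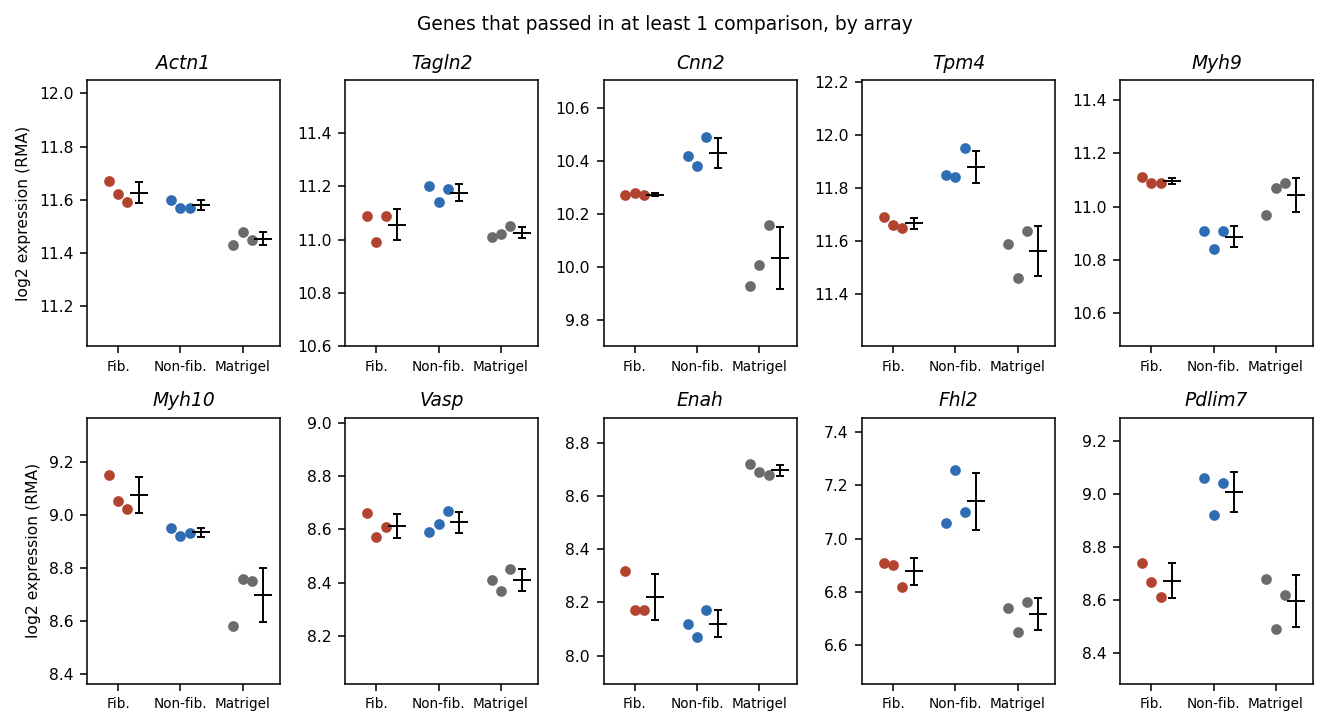
Log2 RMA expression (vertical axes, each spanning 1 log2 unit) of the 10 genes that passed in at least 1 comparison, in fibrillar collagen (Fib.), non-fibrillar collagen (Non-fib.) and Matrigel. Points are arrays, and the dash with its bar is the mean ± SD (n = 3); Enah is highest in all 3 Matrigel arrays, and Pdlim7, Tpm4, Fhl2, Cnn2 and Tagln2 are highest in the 3 non-fibrillar arrays.

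Between the forms of collagen the set went both ways. In fibrillar collagen Myh9 was higher, and Tpm4 and Pdlim7 were lower, than in non-fibrillar collagen, so 3 of 32 genes passed (9.38%), against 6.40% of all genes. Higher calls were 1 of 32 where 2.71% of all genes were called higher, and lower calls 2 of 32 where 3.69% were. The median difference was 0.014 log2 units over the 32 genes and 0.0080 over all genes tested, and it was slightly below 0 after centring on array medians or without fibrillar replicate 1. The split of 1 higher and 2 lower became 3 higher and 1 lower after quantile normalization again, and 0 higher and 4 lower after centring.

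Against Matrigel, fibrillar collagen had 4 of 32 genes called (12.5%), where 3.82% of all genes were called. Actn1, Myh10 and Vasp were the 3 higher, where 1.45% of all genes were called higher, and Enah the 1 lower, where 2.37% were. Non-fibrillar collagen had 9 of 32 called against Matrigel (28.1%), where 13.8% of all genes were called. Tagln2, Cnn2, Tpm4, Myh10, Vasp, Fhl2 and Pdlim7 were the 7 higher, where 6.75% of all genes were called higher, and Myh9 and Enah the 2 lower, where 7.07% were. Over the 32 genes the median difference from Matrigel was 0.044 log2 units in fibrillar and 0.041 in non-fibrillar collagen, against 0.0028 and 0.00061 over all genes. Most of the set is bright on the array, and bright genes were called more often: among genes with a mean of at least 6, 12.0% of 25 in the set passed between the collagens, against 11.2% of all such genes. In fibrillar collagen against Matrigel 4 of the 25 passed, against 6.25% of all such genes. In non-fibrillar collagen against Matrigel it was 36.0% of the 25, against 23.6% of all such genes. In RNA from whole cultures, fewer cells of a kind and less RNA per cell cannot be told apart.

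**Figure D2:**
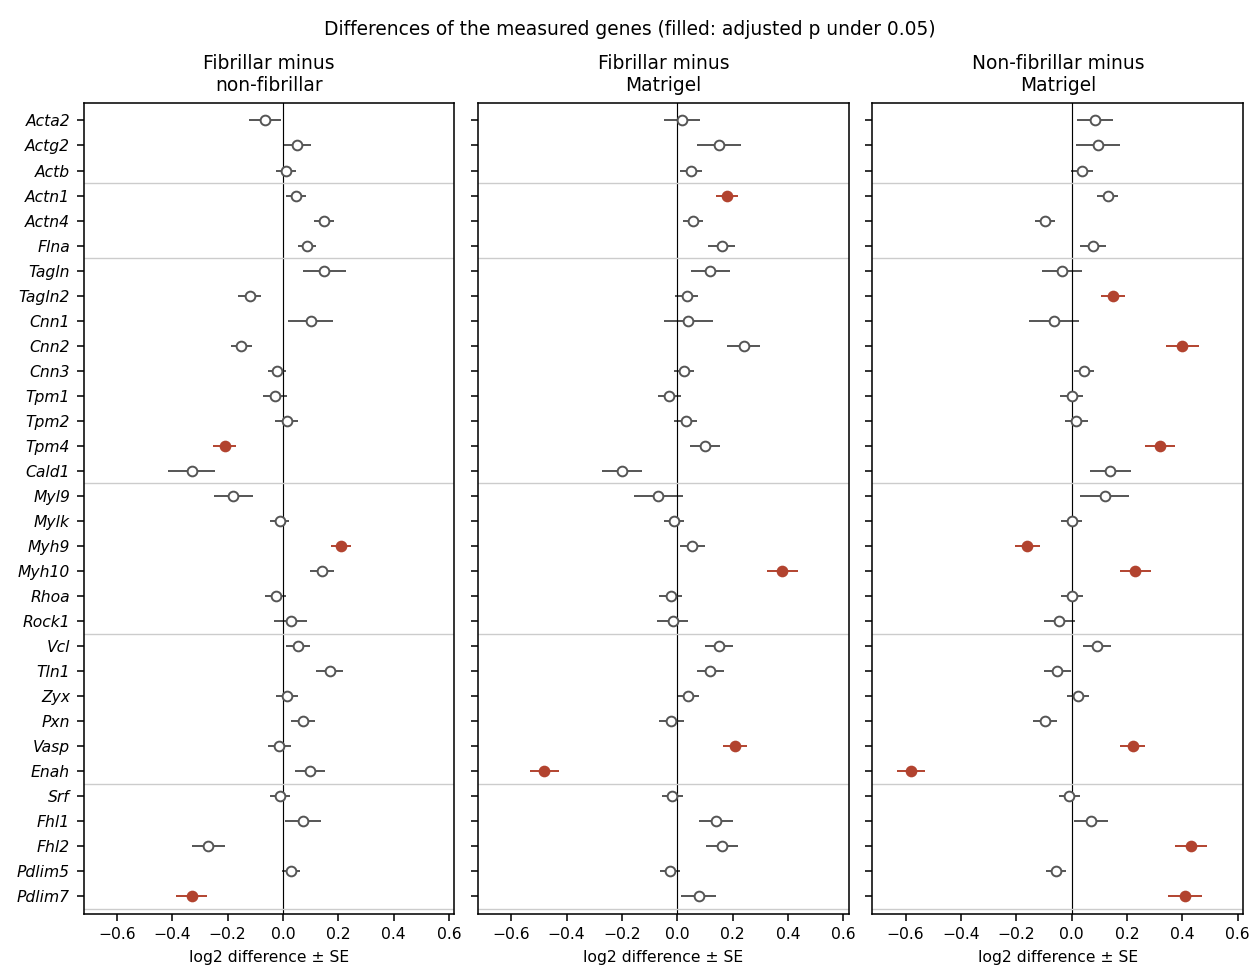
Log2 differences ± SE (limma, horizontal axes) of the 32 measured genes in fibrillar minus non-fibrillar collagen, fibrillar collagen minus Matrigel and non-fibrillar collagen minus Matrigel; filled points passed an adjusted p of 0.05 and grey lines separate roles. Between the collagens 3 genes passed, against Matrigel 4 and 9, with Enah farthest from 0.

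No actin with its own probe set passed in any comparison. Actb, cytoplasmic beta-actin, had 13.51, 13.54 and 13.46 log2 units in fibrillar collagen, 13.49, 13.51 and 13.48 in non-fibrillar collagen, and 13.41, 13.45 and 13.49 in Matrigel. The groups overlap, and its difference between fibrillar and non-fibrillar collagen was 0.011 ± 0.0368 (SE), with a 95% interval of -0.077 to 0.099. Acta2, smooth muscle alpha-actin, had 5.99, 6.01 and 6.01 in fibrillar collagen, 6.02, 6.00 and 6.19 in non-fibrillar collagen, and 6.01, 5.87 and 6.08 in Matrigel. It overlapped between all groups as well, and its 95% interval between the collagens ran from -0.20 to 0.071. Actg2, the enteric smooth muscle form, averaged 5.23 in fibrillar collagen, 5.18 in non-fibrillar collagen and 5.09 in Matrigel.

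The shared probe sets of Actb and Actg1, 4 in number, can be given to neither gene. On the first, the values were 12.65, 12.67 and 12.69 in fibrillar collagen, 12.69, 12.68 and 12.79 in non-fibrillar collagen, and 12.43, 12.54 and 12.62 in Matrigel. All Matrigel arrays were thus below all collagen arrays there. In a fit over all probe sets, chosen after seeing the data, the difference from Matrigel was 0.14 ± 0.0552 for fibrillar collagen (adjusted p = 0.304) and 0.19 ± 0.0552 for non-fibrillar collagen (adjusted p = 0.0813), which misses the threshold.

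Among the crosslinkers, Actn1, an alpha-actinin of stress fibers and adhesions, had 11.67, 11.62 and 11.59 log2 units in fibrillar collagen, 11.60, 11.57 and 11.57 in non-fibrillar collagen, and 11.43, 11.48 and 11.45 in Matrigel. Every collagen array was above every Matrigel array, and the rise in fibrillar collagen was 1.13-fold (0.18 ± 0.0388, adjusted p = 0.0385). That call was lost with only the 6 arrays of the comparison in the fit and whichever of them was left out, and its adjusted p reached 0.107 over the alternatives. Non-fibrillar collagen stood at 0.13 ± 0.0388 from Matrigel (adjusted p = 0.0564).

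Actn4, the alpha-actinin also found in the nucleus and at cell edges, did not pass, but its groups kept apart. It had 12.09, 12.01 and 12.07 in fibrillar collagen, 11.90, 11.89 and 11.91 in non-fibrillar collagen, and 11.98, 12.00 and 12.01 in Matrigel, with a difference of 0.15 ± 0.0358 between the collagens (adjusted p = 0.0574, and 0.018 to 0.171 over the alternatives). Flna, filamin A, had 11.70, 11.69 and 11.68 in fibrillar collagen, 11.63, 11.58 and 11.61 in non-fibrillar collagen, and 11.44, 11.53 and 11.61 in Matrigel. Its fibrillar arrays were the highest 3 of the 9, at 0.16 ± 0.0472 from Matrigel (adjusted p = 0.0962).

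Of 9 genes for proteins bound along thin filaments, 1 was lower in the fibrillar than the non-fibrillar form, where 3.69% of all genes were called lower. In non-fibrillar collagen 3 were higher than in Matrigel, where 6.75% of all genes were called higher. None passed between fibrillar collagen and Matrigel, where 3.82% of all genes did. Tpm4, a cytoplasmic tropomyosin, had 11.69, 11.66 and 11.65 log2 units in fibrillar collagen, 11.85, 11.84 and 11.95 in non-fibrillar collagen, and 11.59, 11.46 and 11.64 in Matrigel. The non-fibrillar arrays were above all others. Tpm4 was 1.16-fold lower in the fibrillar form than in the non-fibrillar one (-0.21 ± 0.0421, adjusted p = 0.0362), and it did not pass with the replicate block (adjusted p = 0.0615), after quantile normalization again, or without any 1 of the 6 arrays. It was 1.25-fold higher in non-fibrillar collagen than in Matrigel (0.32 ± 0.0544, adjusted p = 0.00419), a call kept without any 1 array. A second Tpm4 probe set, shared with Gm7809, averaged 12.55 in fibrillar collagen, 12.64 in non-fibrillar collagen and 12.50 in Matrigel. In the fit over all probe sets it passed in no comparison, with adjusted p = 0.481 between the collagens and 0.763 and 0.205 for the fibrillar and non-fibrillar forms against Matrigel.

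Cnn2, calponin 2, a non-muscle calponin that binds actin, had 10.27, 10.28 and 10.27 in fibrillar collagen, 10.42, 10.38 and 10.49 in non-fibrillar collagen, and 9.93, 10.01 and 10.16 in Matrigel. The 3 groups did not overlap. Cnn2 rose 1.32-fold in non-fibrillar collagen over Matrigel (0.40 ± 0.0594, adjusted p = 0.00198). Fibrillar collagen stood at 0.24 ± 0.0594 from Matrigel (adjusted p = 0.0552) and at -0.15 ± 0.0390 from non-fibrillar collagen (adjusted p = 0.0726). Both are past the spread within groups but not past the threshold over all genes, and they passed under some alternatives.

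Tagln2, transgelin 2, had 11.09, 10.99 and 11.09 in fibrillar collagen, 11.20, 11.14 and 11.19 in non-fibrillar collagen, and 11.01, 11.02 and 11.05 in Matrigel. It was 1.11-fold higher in non-fibrillar collagen than in Matrigel (0.15 ± 0.0422, adjusted p = 0.0413), a call lost after quantile normalization again and whichever 1 of the 6 arrays was left out (adjusted p up to 0.121 over the alternatives). Cald1, caldesmon, which holds back myosin on thin filaments, had 8.65, 8.47 and 8.36 in fibrillar collagen, 8.84, 8.91 and 8.73 in non-fibrillar collagen, and 8.69, 8.69 and 8.69 in Matrigel. All fibrillar arrays were below the others. Its Matrigel values were identical to the last deposited digit. Between fibrillar and non-fibrillar collagen it differed by -0.33 ± 0.0842, as far as Pdlim7 but with a wider spread (adjusted p = 0.0700, and 0.0489 with the replicate block).

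Tpm1 and Cnn3 stayed within 0.05 log2 units in every comparison. Tagln, Cnn1 and Tpm2, the forms most used by smooth muscle, had group means between 5.43 and 5.65 and none passed. Tagln and Cnn1 were both high in fibrillar replicate 1, at 5.82 and 5.71, above the other 2 fibrillar arrays, but Cnn1 was as high in Matrigel replicate 1, at 5.68.

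**Figure D3:**
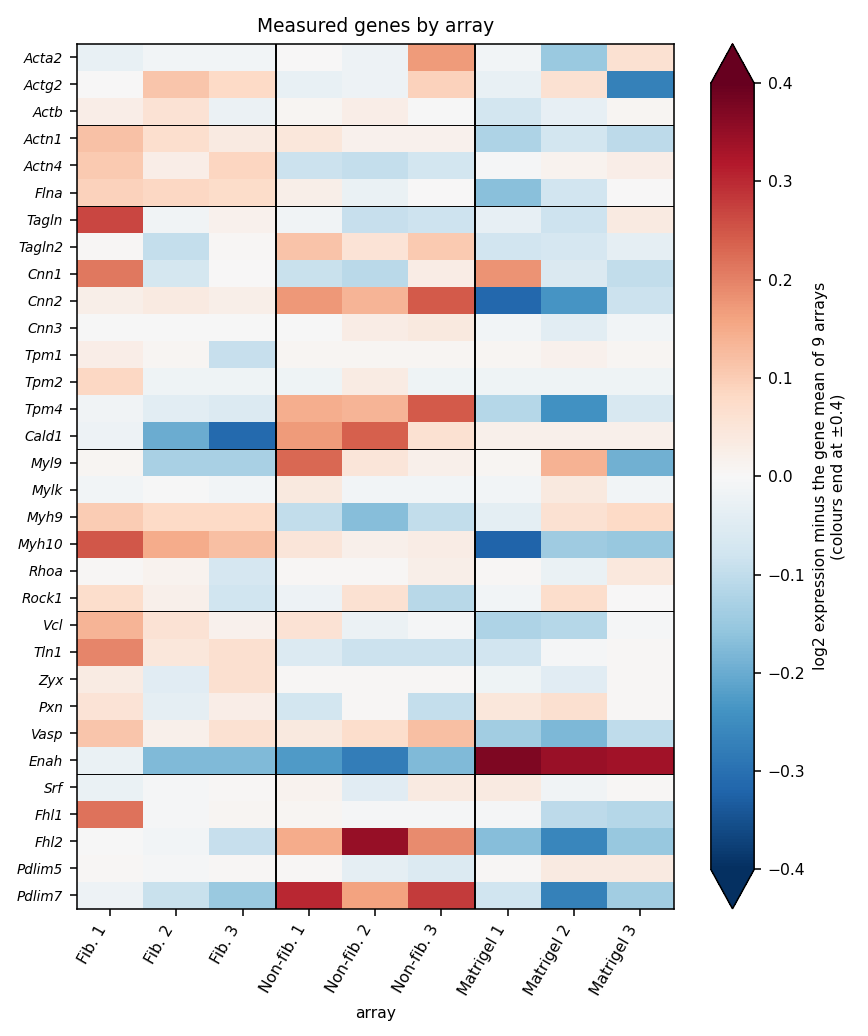
Log2 expression of each of the 32 measured genes minus its own mean over 9 arrays, by array (columns, 3 per group) and ordered by role (rows, lines between roles). Enah is high in the 3 Matrigel arrays, Cnn2, Tpm4, Fhl2 and Pdlim7 in the non-fibrillar ones, and fibrillar replicate 1 is the highest of the 3 fibrillar arrays for 23 genes.

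The heavy chains of non-muscle myosin IIA and IIB both changed, and their order over the groups differed. Myh9 (IIA) had 11.11, 11.09 and 11.09 log2 units in fibrillar collagen, 10.91, 10.84 and 10.91 in non-fibrillar collagen, and 10.97, 11.07 and 11.09 in Matrigel. The non-fibrillar arrays were below all others. It was 1.16-fold higher in fibrillar than in non-fibrillar collagen (0.21 ± 0.0362, adjusted p = 0.0261) and 1.11-fold lower in non-fibrillar collagen than in Matrigel (-0.16 ± 0.0441, adjusted p = 0.0438). The first call was lost after centring on array medians, with probe sets averaged and without any 1 of the 6 arrays, and the second was lost after centring, with only its 6 arrays in the fit, and without any 1 array but Matrigel replicate 1.

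A second Myh9 probe set was dimmer and passed in no comparison. Its means were 7.15 in fibrillar collagen, 7.10 in non-fibrillar collagen and 7.44 in Matrigel. In the same fit over all probe sets it differed by 0.048 ± 0.0993 between fibrillar and non-fibrillar collagen (adjusted p = 0.847), where the first probe set, at 0.21 ± 0.0366, had the same sign and did not pass either (adjusted p = 0.0667). Relative to Matrigel it stood at -0.29 ± 0.0989 in fibrillar collagen (adjusted p = 0.234), where the first probe set, at 0.055 ± 0.0432, had the other sign. In non-fibrillar collagen it stood at -0.34 ± 0.0989 from Matrigel (adjusted p = 0.0798), with the same sign as the first.

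Myh10 (IIB) had 9.15, 9.05 and 9.02 in fibrillar collagen, 8.95, 8.92 and 8.93 in non-fibrillar collagen, and 8.58, 8.76 and 8.75 in Matrigel. The groups did not overlap, with fibrillar collagen on top. It was 1.30-fold higher in fibrillar collagen than in Matrigel (0.38 ± 0.0564, adjusted p = 0.00701), which held without any 1 array, and 1.18-fold higher in non-fibrillar collagen than in Matrigel (0.23 ± 0.0564, adjusted p = 0.0216), which was lost without any 1 of the non-fibrillar arrays. Between the collagens it stood at 0.14 ± 0.0436 (adjusted p = 0.117).

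Rhoa, the GTPase that turns on contractility, and Rock1, 1 of its kinases, did not pass. Rhoa had 12.70, 12.71 and 12.63 in fibrillar collagen, 12.70, 12.70 and 12.72 in non-fibrillar collagen, and 12.70, 12.67 and 12.74 in Matrigel, and its 95% interval between the collagens was -0.12 to 0.064. Its second probe set had differences of -0.020, -0.029 and -0.0087 in the 3 comparisons, as small as those of the first. Myl9 and Mylk, the regulatory light chain and the kinase that phosphorylates it in smooth muscle, had group means of 5.18 to 5.52 and did not pass.

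Enah and Vasp encode related proteins of the Ena/VASP family, which extend actin filaments at adhesions and at the leading edge, and they changed in opposite directions against Matrigel. Enah had 8.32, 8.17 and 8.17 log2 units in fibrillar collagen, 8.12, 8.07 and 8.17 in non-fibrillar collagen, and 8.72, 8.69 and 8.68 in Matrigel. Every collagen array was below every Matrigel array by more than the spread within any group. Relative to Matrigel, Enah fell 1.39-fold with the fibrillar form (-0.48 ± 0.0510, adjusted p = 0.00119) and 1.49-fold with the non-fibrillar form (-0.58 ± 0.0510, adjusted p = 0.000117).

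Vasp had 8.66, 8.57 and 8.61 in fibrillar collagen, 8.59, 8.62 and 8.67 in non-fibrillar collagen, and 8.41, 8.37 and 8.45 in Matrigel. Here all Matrigel arrays were lowest and the collagens overlapped. It was 1.15-fold higher in fibrillar collagen (0.21 ± 0.0435, adjusted p = 0.0309) and 1.16-fold higher in non-fibrillar collagen (0.22 ± 0.0435, adjusted p = 0.00878) than in Matrigel. The first of these calls was lost with only its 6 arrays in the fit and whichever 1 of them was left out (adjusted p up to 0.106 over the alternatives), the second with none, and neither Enah call was lost without any 1 array. Between fibrillar and non-fibrillar collagen the differences were 0.099 ± 0.0551 for Enah and -0.013 ± 0.0411 for Vasp (adjusted p = 0.361 and 0.885).

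Tln1, talin 1, which activates integrins, had 10.35, 10.20 and 10.22 in fibrillar collagen, 10.10, 10.07 and 10.07 in non-fibrillar collagen, and 10.08, 10.15 and 10.16 in Matrigel. The fibrillar arrays were the highest 3, at 0.17 ± 0.0484 from non-fibrillar collagen (adjusted p = 0.0933). Vcl, vinculin, which reinforces talin's link to actin, was at 0.055 ± 0.0446 between the collagens and at 0.15 ± 0.0501 and 0.091 ± 0.0501 in fibrillar and non-fibrillar collagen against Matrigel (adjusted p = 0.527, 0.157 and 0.309). Zyx and Pxn, zyxin and paxillin, lay within 0.1 log2 units in each comparison.

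Srf itself had 8.40, 8.42 and 8.43 log2 units in fibrillar collagen, 8.44, 8.38 and 8.46 in non-fibrillar collagen, and 8.46, 8.41 and 8.43 in Matrigel. The groups overlapped throughout, and its difference between the collagens had a 95% interval of -0.096 to 0.077. Relative to Matrigel the intervals were -0.10 to 0.068 with the fibrillar form and -0.094 to 0.078 with the non-fibrillar form. The activity of SRF was not measured.

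Pdlim7, a PDZ and LIM domain protein of stress fibers also called enigma, had 8.74, 8.67 and 8.61 in fibrillar collagen, 9.06, 8.92 and 9.04 in non-fibrillar collagen, and 8.68, 8.49 and 8.62 in Matrigel. The non-fibrillar arrays were above all 6 others, whose groups overlapped. Pdlim7 was 1.26-fold lower in the fibrillar form than in the non-fibrillar one (-0.33 ± 0.0547, adjusted p = 0.0231) and 1.33-fold higher in non-fibrillar collagen than in Matrigel (0.41 ± 0.0623, adjusted p = 0.00225). Of the 6 refits without 1 array, the first call was kept only without fibrillar replicate 1, with adjusted p up to 0.0894 over the alternatives, while the second was never lost.

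Fhl2, a LIM-only cofactor that binds integrins and SRF, had 6.91, 6.90 and 6.82 in fibrillar collagen, 7.06, 7.26 and 7.10 in non-fibrillar collagen, and 6.74, 6.65 and 6.76 in Matrigel. The groups did not overlap. It was 1.34-fold higher in non-fibrillar collagen than in Matrigel (0.43 ± 0.0578, adjusted p = 0.00119), and kept that call without any 1 array. Between fibrillar and non-fibrillar collagen it stood at -0.27 ± 0.0598 (adjusted p = 0.0518), passing with all 9 arrays in the fit, after centring, with a filter on dim genes and with a trended prior. Fhl1 and Pdlim5, a LIM-only and a PDZ-LIM protein, did not pass.

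Groups that do not overlap were common over the whole array. Between fibrillar and non-fibrillar collagen this held for 12 of 32 genes (37.5%), against 25.2% of all genes. It held for 15 of 32 (46.9%) in each comparison with Matrigel, against 20.4% of all genes for fibrillar and 28.4% for non-fibrillar collagen. These shares were not taken over bright genes alone, which are most of the set. In fibrillar against non-fibrillar collagen 5 of the 32 were higher without overlap and 7 lower, where 11.6% and 13.6% of all genes were. The 5 higher genes were Actn4, Flna, Myh9, Myh10 and Tln1, crosslinkers, myosin heavy chains and talin. The 7 lower ones were Tagln2, Cnn2, Tpm4 and Cald1, which bind thin filaments, the light chain Myl9, and the LIM proteins Fhl2 and Pdlim7. Of these 12 only Myh9, Tpm4 and Pdlim7 passed the test, and the grouping by role was noticed after their values were seen. Fibrillar replicate 1 was the highest of the 3 fibrillar arrays for 23 of the 32 genes and the highest of all 9 for 13.

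Other genes of the actin pathways were taken in 5 lists. In fibrillar against non-fibrillar collagen, 0 of 14 Arp2/3 genes, which nucleate branched actin, passed. Among monomer-binding, severing and capping genes 1 of 23 was higher and 4 lower, among other focal adhesion genes 3 of 37 were higher and 3 lower, among other myosin and contractile genes 4 of 23 were higher and 1 lower, and among other MRTF and SRF linked genes 2 of 26 were higher and 3 lower. Over all genes 2.71% were called higher and 3.69% lower in this comparison, 6.40% in all, and the 4 lists with calls had 16.2 to 21.7% called. Among all genes with a mean of at least 6, 11.2% were called, and the lists were not cut to such genes. The medians of these lists lay between -0.058 and 0.059 log2 units.

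Several genes of these lists differed more than any of the 32. Ankrd1, a muscle ankyrin repeat protein induced by mechanical load, averaged 9.54 log2 units in fibrillar collagen, 10.26 in non-fibrillar collagen and 9.41 in Matrigel, with -0.72 ± 0.0440 between the collagens (adjusted p = 0.00413). Its highest mean was in non-fibrillar collagen, as was that of the monomer-binding thymosin Tmsb10 (-0.38 ± 0.0504) and the immediate early gene Ier2 (-0.35 ± 0.0527).

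Lima1, which bundles and stabilizes actin filaments, had the reverse order, at 7.67 in fibrillar collagen, 7.24 in non-fibrillar collagen and 8.11 in Matrigel. It was higher in fibrillar than in non-fibrillar collagen by 0.43 ± 0.0447 (adjusted p = 0.00779). So were the supervillin Svil (0.45 ± 0.0582), the adhesion scaffold Git1 (0.41 ± 0.0359), the spectrin Sptbn1 (0.35 ± 0.0348) and the myosin Myo1e (0.32 ± 0.0341). Of these 8 genes named between the collagens, 5 kept their call without any 1 array, and Tmsb10, Svil and Ier2 each lost it in 4 of the 6 refits.

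Against Matrigel, 1.45% of all genes were called higher and 2.37% lower in fibrillar collagen (3.82% in all), and 6.75% higher and 7.07% lower in non-fibrillar collagen (13.8% in all). Among all genes with a mean of at least 6, 6.25% were called in fibrillar and 23.6% in non-fibrillar collagen. The monomer-binding, severing and capping list had 0 of 23 genes higher and 1 lower in fibrillar collagen against Matrigel, the profilin Pfn2 (-0.28 ± 0.0479), and 5 higher and 2 lower in non-fibrillar collagen, where Tmsb10 was at 0.50 ± 0.0519 and Svil at -0.66 ± 0.0650. Other focal adhesion genes had 1 of 37 higher and 2 lower in fibrillar collagen, and 3 higher and 4 lower in non-fibrillar collagen, or 8.11% and 18.9% called. Lima1 was lower in both, at -0.43 ± 0.0557 in fibrillar and -0.86 ± 0.0557 in non-fibrillar collagen, as was the adhesion adaptor Lims2, at -0.30 ± 0.0563 and -0.49 ± 0.0563. The fibrillar call of Lims2 was lost whichever 1 of the 6 arrays was left out.

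Other myosin and contractile genes had 0 of 23 higher and 1 lower in fibrillar collagen against Matrigel, and 2 higher and 3 lower in non-fibrillar collagen. Sptbn1 was at -0.35 ± 0.0423 in non-fibrillar collagen, and the myosin phosphatase subunit Ppp1r12b at -0.19 ± 0.0370 in fibrillar and -0.34 ± 0.0370 in non-fibrillar collagen. Both Ppp1r12b calls were lost with probe sets averaged, and the fibrillar one without any 1 array but Matrigel replicate 1. MRTF and SRF linked genes had 3 of 26 higher and 0 lower in fibrillar collagen, and 4 higher and 3 lower in non-fibrillar collagen. These are 11.5% and 26.9% called, against 3.82% and 13.8% of all genes and 6.25% and 23.6% of those with a mean of at least 6. The genes called included Elk3, an SRF partner (0.32 ± 0.0479), and thrombospondin Thbs1 (0.32 ± 0.0695), higher in fibrillar collagen. Ankrd1 (0.85 ± 0.0459) and Ier2 (0.49 ± 0.0522) were higher in non-fibrillar collagen. Thbs1 lost its call without any 1 array but fibrillar replicate 3. Arp2/3 genes had 0 of 14 called in fibrillar collagen, and 2 higher in non-fibrillar collagen, Actr3 (0.15 ± 0.0412) and Arpc5 (0.15 ± 0.0436), which each lost the call in 5 of 6 refits without 1 array.

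**Figure D4:**
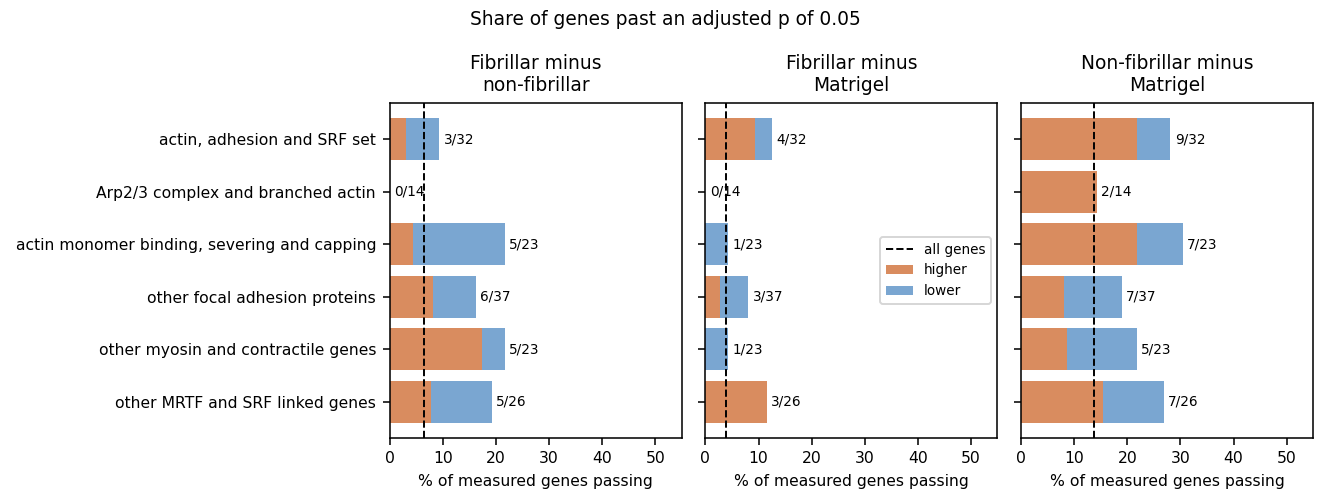
Share of measured genes that passed an adjusted p of 0.05 (horizontal axes, percent), higher and lower, for the actin, adhesion and SRF set and the 5 pathway lists in the 3 comparisons, with counts beside the bars. The dashed line is the share over all genes, at 6.40, 3.82 and 13.8%. Among all genes with a mean of at least 6 the share was 11.2, 6.25 and 23.6%.

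The cell identity was checked with markers. The epithelial keratins Krt8 and Krt18 had group means of 13.13 to 13.27 and 12.62 to 12.90 log2 units, and E-cadherin Cdh1 9.04 to 9.08. Cldn7 lay at 6.81 to 6.99, Epcam at 5.94 to 6.21, and Krt19, Krt5 and Cldn4 at 5.32 to 5.92. Krt7, another epithelial keratin, differed from Matrigel by more than any gene of the set, at 10.37 in fibrillar collagen, 10.67 in non-fibrillar collagen and 9.47 in Matrigel. Its difference was -0.30 ± 0.0338 between the collagens (adjusted p = 0.00918), and from Matrigel 0.90 ± 0.0386 in fibrillar (adjusted p = 8.74e-06) and 1.20 ± 0.0386 in non-fibrillar collagen (adjusted p = 5.61e-07). Of 10 epithelial markers, 1 was called between the collagens, Krt7, which was lower, where 6.40% of all genes were called. In fibrillar collagen against Matrigel 2 were higher and 1 lower (30.0%, against 3.82%), and in non-fibrillar collagen 4 were higher and 1 lower (50.0%, against 13.8%). Among 10 myoepithelial and smooth muscle markers outside the set, 0 passed between the collagens. Against Matrigel 1, Krt14, which is also in the epithelial list, was lower in each collagen, with group means of 11.22 to 11.52. Smtn lay at 8.75 to 8.92 and Lmod1 at 5.99 to 6.16, while Myh11, Des, Oxtr, Synpo2, Krt17 and Trp63 lay between 4.95 and 5.92. Of 12 fibroblast and pericyte markers Pdgfra alone passed, at 10.91 in fibrillar collagen, 10.24 in non-fibrillar collagen and 11.25 in Matrigel. It was called between the collagens and in non-fibrillar collagen against Matrigel, and the list mean per array was 5.72 to 5.80, 5.61 to 5.70 and 5.75 to 5.81 in these groups. The 11 macrophage and endothelial markers had array means of 5.41 to 5.46, 5.27 to 5.34 and 5.47 to 5.51. Cd68 was called in all comparisons (0.83 between the collagens, -0.55 in fibrillar and -1.38 in non-fibrillar collagen against Matrigel). Kdr was called in non-fibrillar collagen against Matrigel. Dcn, Lum, Lyz2 and Adgre1, among the dimmest genes of these lists, had means of 3.24 to 4.45. Not all uncalled fibroblast and pericyte markers were dim. By array, Col1a1 had 8.55 to 8.73 and Pdgfrb 7.44 to 8.17. The part of these markers in the actin results was not tested.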

How the data were processed

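Total RNA was measured on 9 Affymetrix arrays. The authors deposited 1 log2 value for each probe set; the submitters' processing notes name RMA and Affymetrix Power Tools. Versions, settings and whether all arrays shared 1 run were not given in the sources used here. RMA sets arrays that are run together to 1 distribution, so a shift common to most transcripts may not show. The deposited array medians still differed, from 5.98 to 6.05.

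Of 35512 probe sets, 21789 had 1 gene symbol in the platform annotation, 1621 had several and 12102 were not listed; the single-symbol ones gave 19938 genes, by the highest mean probe set. No filter was set on dim genes. The closest 2 arrays differed by 0.127 log2 units on average, so none was a duplicate. Pearson's r across probe sets, which are not independent replicates, was 0.9942 to 0.9963 within groups and 0.9922 to 0.9958 between them. Detection calls were not analysed, and precision is limited by having 3 arrays a group.

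Differences were fitted with limma 3.58.1 in R 4.3.3, two-sided, adjusted by Benjamini-Hochberg over all genes. The collagen comparison used its 6 arrays, and each comparison with Matrigel used all 9. Scripts were tested on simulated data. Genes with values by array are those that passed in a comparison, with a few others given for contrast and chosen after their values were seen (Actb, Acta2, Actn4, Flna, Cald1, Rhoa, Tln1, Srf); list genes are the 2 with the smallest p among those called. The set, lists and tests were chosen with earlier results of these data known.

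Deviations from group means were correlated between same-numbered arrays to see whether replicate numbers pair them. Between the collagens r was 0.143 to 0.242, all above 0.1, so the numbers were taken to pair these arrays, on the data alone. The main fits leave this pairing out, and all calls, SEs and p-values are unpaired unless the replicate block is named. The alternatives tried were another choice of arrays for the fit, a replicate block, a second quantile normalization, array medians set equal, a minimum mean of 6, averaged probe sets, a trended robust prior, a threshold of 0.01 and leaving out each array. A fit over all probe sets was chosen after seeing the data. Another list of related genes is not reported here.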

Additional observations from a re-analysis of the deposited data

How the results depend on the processing

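The calls of Enah and Myh10 in fibrillar collagen and of Cnn2, Tpm4, Vasp, Enah, Fhl2 and Pdlim7 in non-fibrillar collagen, each against Matrigel, were kept under every alternative run at the threshold of 0.05; no call reversed its sign. Between the collagens the genes of the set called (3) were 6 with all 9 arrays, 8 with the dim filter, 7 with a trended prior, 0 at a threshold of 0.01, 0 in the fit over all probe sets, and 0 to 1 without 1 array. Against Matrigel, fibrillar collagen's 4 became 2 with only its 6 arrays, at the threshold of 0.01 and over all probe sets, and 2 to 3 without 1 array; non-fibrillar collagen's 9 became 6 to 8 without 1 array. With the replicate block 3, 4 and 8 were called: Tpm4 was lost (adjusted p = 0.0615) and Cald1 gained (0.0489) between the collagens, Actn1 lost (0.0508) and Cnn2 gained (0.0398) in fibrillar collagen against Matrigel, and Myh9 lost (0.0578) in non-fibrillar collagen against Matrigel. In both Matrigel comparisons some same-numbered pairs had r under 0.1 (0.097 to 0.253 and 0.045 to 0.135), although each array correlated best with its own number, a hint from the data only. Over all genes the calls, 1277, 762 and 2755, were 2111 and 1211 with the dim filter in the first 2, 460 with 6 arrays in the second, 168, 239 and 1419 at 0.01, and 150 to 569, 353 to 513 and 1814 to 2492 without 1 array. The set's median of 0.014 between the collagens was -0.0083 after centring and -0.00098 to 0.0298 without 1 array, below 0 only without fibrillar replicate 1; that of fibrillar collagen against Matrigel was 0.0622 after quantile normalization again and 0.0315 to 0.0675 without 1 array; that of non-fibrillar collagen was 0.0275 after quantile normalization again, 0.0774 after centring and 0.0294 to 0.0446 without 1 array. The dim filter and the fit over all probe sets change how many features are tested; the cause of the other shifts was not tested. Of the other alternatives of single genes, 1290 kept a call with its sign or, uncalled, moved by under 1 SD. Many of these could not move. Other arrays in the fit, the replicate block, the dim filter, the trended prior, the stricter threshold and the fit over all probe sets leave a difference unchanged. The 1290 is therefore no measure of stability for uncalled genes. A further 69 lost a call, 27 gained one and 33, uncalled, moved by over 1 SD. Sign was not checked for genes that stayed uncalled, and it changed for some. Srf between the collagens, for example, was at -0.0098, and at 0.0143 after quantile normalization again. The 7 genes with means under 6 (Actg2, Tagln, Cnn1, Tpm2, Myl9, Mylk and Fhl1) were not checked against background, so their intervals bound only what these probe sets show.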
